A study of Homo sapiens with 12 samples.

Results

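The Krüppel-like factors (KLFs) described here are 10 transcription factor genes, KLF2, KLF3, KLF4, KLF5, KLF6, KLF7, KLF9, KLF10, KLF11 and KLF13, among 58037 gene identifiers with RNA-seq counts in 2 prostate cancer cell lines. They were chosen by name and were found by Ensembl identifier, and all 10 had enough counts to be tested in every comparison. RNA was sequenced from LNCaP-AI and DU-145 cells that stably carry a tetracycline-inducible shRNA against MUC1, with 3 samples per group. LNCaP-AI cells are androgen-independent prostate cancer cells derived from the LNCaP lineage through C4-2B cells by long culture without androgens, and DU-145 cells are likewise androgen-independent prostate cancer cells. In each line the control group received vehicle (DMSO) and the other group received 500 ng/ml doxycycline (DOX) for 7 days, which switches on the shRNA. The labels name these groups shCTL and shMUC1, although both groups carry the MUC1 shRNA according to the design of the series. Cells carrying a control shRNA and given DOX are not among these RNA-seq samples, although the paper used them in other assays. In these counts, what DOX does by itself cannot be told apart from silencing.

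KLF proteins bind GC boxes and CACCC elements in DNA through zinc fingers at their C-terminal end, and they differ mainly in the N-terminal part, which recruits coactivators or corepressors. KLF2, KLF4, KLF5, KLF6 and KLF7 are mostly described as activators that work with histone acetylases. KLF3 is a repressor that binds CtBP proteins, and KLF9, KLF10, KLF11 and KLF13 recruit the SIN3A corepressor. In epithelia the family is known for setting the balance between proliferation and differentiation, and KLF4 is one of the factors used to reprogram somatic cells to pluripotency.

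The cells and the silencing were checked in the same counts. Total counts per sample were 10423437 to 13544153 in DU-145 and 16569613 to 26961777 in LNCaP-AI. The luminal prostate genes KLK2 and KLK3 had 0 counts in all 6 DU-145 samples, whereas KLK3 had 2636 to 8258 counts in the LNCaP-AI samples. MUC1 counts were 74, 60 and 59 with vehicle and 3 in each DOX sample of DU-145 cells, and 36, 25 and 52 with vehicle and 8, 6 and 3 with DOX in LNCaP-AI cells. MUC1 was lower with DOX in both lines by edgeR's quasi-likelihood test (adjusted p = 1.37e-09 in DU-145 and 0.0139 in LNCaP-AI). A count of 3 was taken as the detection floor, so the size of the decrease in DU-145 cells is not given as a fold. This floor covers counting error only. The series describes triplicate cultures without saying whether these were separate experiments, so p-values measure the spread between these samples, which may be technical.

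One feature of the LNCaP-AI samples bears on every KLF value in that line. A principal component analysis of these 6 samples put 82.5% of the variance in log2 CPM on its first component, which did not separate the treatments. Vehicle 1 fell together with DOX 2 and DOX 3, called side A here, and DOX 1 together with vehicle 2 and vehicle 3, called side B. The labels give no batch, date or clone for this division, and its source was not tested. In DU-145 cells the first component held 71.1% of the variance and separated vehicle from DOX. The LNCaP-AI values are therefore given below for each sample and also within each side.

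The promoters of 4 members are shown because their transcripts carry the contrasts reported below: KLF4 and KLF2 rose with DOX in DU-145 cells, KLF5 followed the division in LNCaP-AI cells, and KLF9 had the highest level per length in LNCaP-AI cells. Each sequence is the 250 bases before a RefSeq transcript start, from 5′ to 3′ on the gene's strand of GRCh38.p14. The KLF4 and KLF5 windows lie within the annotated span of their gene, downstream of its outermost start. Capitals mark CACCC, the GC box GGGCGG, the E-box CACGTG and the cyclic AMP response element TGACGTCA on either strand.
KLF4 (chr9:107489770-107490019, minus strand): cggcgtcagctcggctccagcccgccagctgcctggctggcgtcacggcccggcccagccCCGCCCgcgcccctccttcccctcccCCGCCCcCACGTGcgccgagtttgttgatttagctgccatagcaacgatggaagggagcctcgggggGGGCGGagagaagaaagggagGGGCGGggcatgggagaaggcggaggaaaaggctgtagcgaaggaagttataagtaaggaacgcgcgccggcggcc
KLF2 (chr19:16324576-16324825, plus strand): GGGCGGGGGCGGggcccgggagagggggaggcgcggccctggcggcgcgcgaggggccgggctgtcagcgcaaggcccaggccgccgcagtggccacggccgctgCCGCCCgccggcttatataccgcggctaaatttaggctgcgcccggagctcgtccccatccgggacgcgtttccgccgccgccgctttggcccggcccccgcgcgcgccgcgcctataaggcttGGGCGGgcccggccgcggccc
KLF5 (chr13:73058755-73059004, plus strand): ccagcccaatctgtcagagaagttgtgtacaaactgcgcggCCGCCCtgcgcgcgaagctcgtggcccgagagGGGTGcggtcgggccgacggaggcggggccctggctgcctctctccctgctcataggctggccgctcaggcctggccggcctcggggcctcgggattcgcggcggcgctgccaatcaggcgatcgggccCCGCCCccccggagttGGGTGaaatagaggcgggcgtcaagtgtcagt
KLF9 (chr9:70414658-70414907, minus strand): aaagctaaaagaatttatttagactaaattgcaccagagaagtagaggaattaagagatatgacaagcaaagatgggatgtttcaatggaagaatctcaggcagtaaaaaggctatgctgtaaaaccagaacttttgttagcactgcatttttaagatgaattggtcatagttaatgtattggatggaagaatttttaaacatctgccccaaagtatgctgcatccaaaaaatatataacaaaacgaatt

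The KLF2 window was 80.0% G and C and the KLF4 window 69.2%, against a median of 58.0% over 34943 windows of all genes. The KLF9 window was 32.4% G and C and held none of the 4 elements. Windows were used for 8 of the members, 13 windows in all. The GC box, which KLF and SP proteins themselves can bind, was present in 8 of these windows and in 42.5% of all windows. The E-box, the element that MYC and related proteins bind, was present in 4 windows, in KLF4, KLF6, KLF7 and KLF11, against 6.32% of all windows. A CACCC element was present in 6 windows (54.7% of all windows) and TGACGTCA in 1 window of KLF11 (1.63% of all windows). The letters GGGCGG and CACCC can overlap each other, and a match describes the sequence without showing that a factor binds it.

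The level of each transcript per length set the order of the family in each line. Levels were expressed as RPKM, CPM on a scale common to all samples divided by kilobases of exon, over all 12 samples. In DU-145 cells with vehicle, KLF6 was the most abundant at 28.8 ± 2.84 RPKM (SD, n = 3), followed by KLF10 at 19.6 ± 0.715 RPKM and KLF5 at 13.1 ± 1.42 RPKM. KLF3 had 6.92 RPKM, KLF11 3.48, KLF9 3.24, KLF2 2.89, KLF4 1.82, KLF7 1.49 and KLF13 0.316 RPKM. Of the 9 pairs of neighbours in this order, the sample ranges overlapped only for KLF11 with KLF9 and for KLF9 with KLF2.

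In LNCaP-AI cells with vehicle the order was different and less sharp. KLF9 came first at 10.5 ± 0.759 RPKM (SD, n = 3), and KLF10, KLF3, KLF6 and KLF11 followed at 9.21, 8.44, 7.73 and 5.93 RPKM. KLF5 had 4.06 ± 3.38 RPKM, KLF4 3.76 ± 1.17 RPKM and KLF7 2.05 RPKM, and KLF2 and KLF13 were lowest at 0.585 and 0.211 RPKM. The sample ranges of the first 7 pairs of neighbours all overlapped, so that from KLF9 down to KLF7 no gene stood clear of the next. With the length of the MANE transcript in place of all exons, KLF10 came before KLF9 in LNCaP-AI cells, at 12.1 and 10.5 RPKM.

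**Figure D1:**
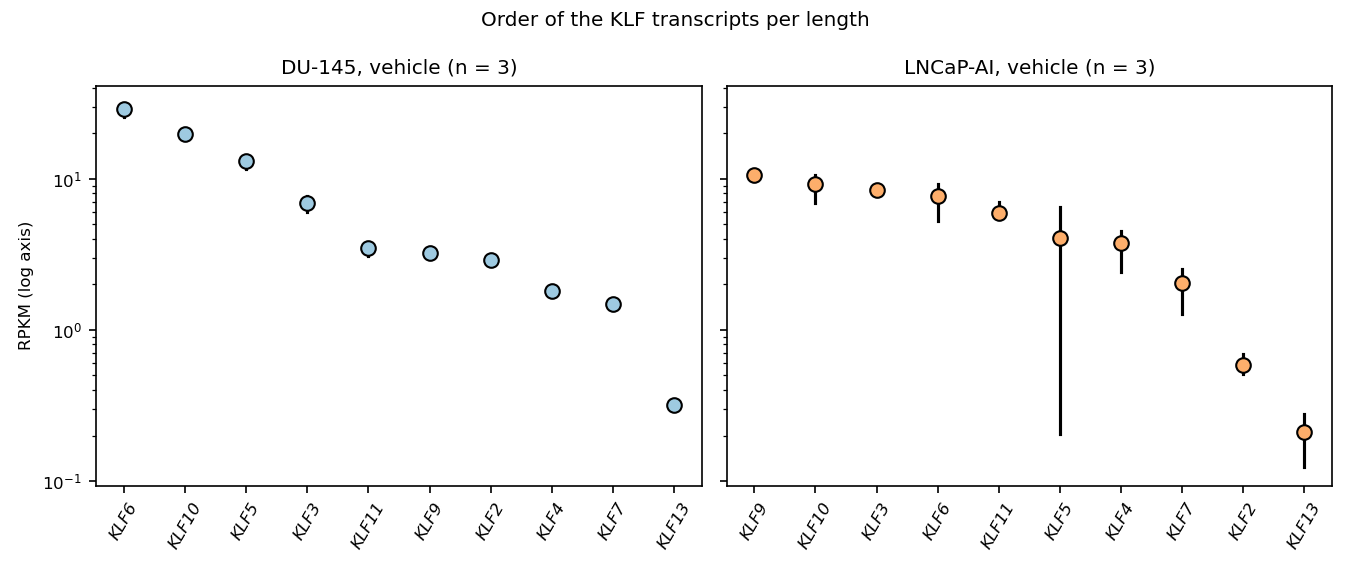
RPKM (log axis) of each KLF transcript in the vehicle samples of DU-145 (left) and LNCaP-AI (right), ordered by level, with points at the mean of 3 samples and vertical lines from the lowest to the highest sample. KLF6 leads in DU-145 at 28.8 RPKM and KLF9 in LNCaP-AI at 10.5 RPKM, and the KLF5 line in LNCaP-AI runs from 0.206 to 6.53 RPKM.

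The difference in level between the untreated lines was tested gene by gene over the 6 vehicle samples. KLF2, KLF6 and KLF10 were higher in DU-145 cells, KLF4, KLF9 and KLF11 were higher in LNCaP-AI cells, and KLF3, KLF5, KLF7 and KLF13 did not pass the test. Over all 15628 genes tested 65.1% were called at an adjusted p under 0.05, 30.2% higher and 35% lower in DU-145 cells, so that 6 of 10 KLF genes is close to the share of all genes. For 9 of the 10 members the samples of the lines did not overlap, as for 73.2% of all genes. The median log2 difference of the members was 0.18, against -0.06 over all genes.

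KLF2, which is known for keeping endothelial cells and T lymphocytes quiescent, showed the largest difference among the 10 members. It had 107, 80 and 90 counts in the DU-145 samples and 35, 27 and 56 counts in the deeper LNCaP-AI samples, and its log2 difference was 2.33 (standard error, SE, 0.201, adjusted p = 7.03e-05, edgeR). KLF6, described as a tumor suppressor in prostate cancer, was 3.82-fold higher in DU-145 cells (adjusted p = 0.000221, edgeR) and KLF10 2.18-fold higher (adjusted p = 0.000796, edgeR). KLF9, a target of glucocorticoid and thyroid hormone receptors, was lower in DU-145 cells by a log2 difference of -1.66 (SE 0.108, adjusted p = 2.32e-05, edgeR). The log2 differences of KLF4 and KLF11 were -1.01 and -0.73 (adjusted p = 0.0111 and 0.00385, edgeR).

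The KLF4 call was lost without DU-145 vehicle 2 (adjusted p = 0.0566, edgeR). Without LNCaP-AI vehicle 1, which lies apart from the other vehicle samples of its line, KLF5 was called higher in DU-145 cells (log2 difference 1.10, adjusted p = 2.34e-08), KLF7 lower (-0.74, adjusted p = 1.48e-05) and KLF3 lower (-0.27, adjusted p = 0.0278), all by edgeR. KLF3 was also called under 3 other settings given in the closing section. Line, batch and depth cannot be told apart in this comparison.

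In DU-145 cells 5 of the 10 KLF transcripts differed between DOX and vehicle. KLF4, KLF2, KLF13 and KLF6 were higher with DOX and KLF10 was lower, while KLF3, KLF5, KLF7, KLF9 and KLF11 did not pass the test. The background in this line is high: 51.5% of 13644 genes were called, 26.3% higher and 25.3% lower, and 57.4% had no overlap between the groups, against 5 of the 10 members. The median log2 fold change of the members was -0.01 and that of all genes 0.00. The share of members called is close to that of all genes.

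KLF4 (ENSG00000136826.14, chromosome 9, 107484852 to 107490482) had the largest change among the activators. Its counts were 82, 61 and 85 with vehicle and 156, 186 and 179 with DOX, or 6.28, 5.82 and 6.78 against 14.0, 13.8 and 15.1 TMM-normalized CPM. All 3 DOX samples lay far above all 3 vehicle samples. KLF4 shares 357 exonic bases with an antisense gene, and how reads were counted with respect to strand is not given. The log2 fold change was 1.18 (SE 0.128, 95% interval 0.91 to 1.44, adjusted p = 3.6e-07, edgeR), a 2.26-fold rise, and it kept its call under all 13 alternatives run. KLF4 thereby moved from place 8 per length with vehicle to place 6 with DOX, at 4.12 RPKM. With the length of the MANE transcript it moved from place 8 to place 5, at 5.14 RPKM.

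KLF2 (ENSG00000127528.5, chromosome 19, 16324826 to 16328685) rose from 107, 80 and 90 counts to 144, 161 and 151 counts. The mean was 7.67 ± 0.511 CPM (SD, n = 3) with vehicle and 12.5 ± 0.520 CPM (SD, n = 3) with DOX, with no overlap between the samples. The log2 fold change came to 0.70 (SE 0.126, adjusted p = 0.000114, edgeR). KLF6 (ENSG00000067082.14, chromosome 10, 3775996 to 3785281), already the most abundant member, rose from 171, 148 and 181 CPM to 253, 230 and 234 CPM, a log2 change of 0.52 (SE 0.0766, adjusted p = 1.39e-05, edgeR). Because of its level this rise was the largest among the 10 members per length, from 28.8 to 41.2 RPKM. KLF5, which promotes proliferation in many epithelia, and KLF7 (ENSG00000118263.14, chromosome 2, 207074137 to 207173856), known from neuronal development, had overlapping groups: KLF5 had 39.8 to 48.8 CPM with vehicle and 42.4 to 48.0 CPM with DOX, and its 95% interval ran from -0.19 to 0.17 on the log2 scale. The interval of KLF7 ran from -0.36 to 0.13.

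The SIN3A-recruiting members did not move together in DU-145 cells. KLF10 (ENSG00000155090.14, chromosome 8, 102648784 to 102655725), an early gene of TGF-beta signaling, fell from 71.6, 67.5 and 72.3 CPM with vehicle to 61.0, 51.8 and 56.9 CPM with DOX. The change on the log2 scale was -0.32 (SE 0.0763, adjusted p = 0.00173, edgeR). KLF13 (ENSG00000169926.10, chromosome 15, 31326835 to 31435665), an activator of CCL5 in T lymphocytes, had only 37, 31 and 33 counts with vehicle and 49, 47 and 55 with DOX. Its log2 fold change of 0.56 (SE 0.203, adjusted p = 0.0263, edgeR) had the highest adjusted p of these 5 genes. KLF9 and KLF11 had intervals of -0.35 to 0.25 and -0.30 to 0.18 on the log2 scale, and that of the CtBP-binding repressor KLF3 was -0.19 to 0.19.

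The KLF13 call did not survive DESeq2 (adjusted p = 0.0903) or leaving out vehicle 1, vehicle 3, DOX 1 or DOX 3, where the adjusted p from edgeR was 0.0676, 0.0906, 0.0684 and 0.0965. In a fit of all 12 samples, where the spread of the LNCaP-AI samples enters the error, KLF4 alone remained called (adjusted p = 0.0203), with 0.128 for KLF2, 0.126 for KLF6, 0.281 for KLF10 and 0.199 for KLF13. That fit called 24.3% of 16800 genes, against 51.5% in the main fit.

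**Figure D2:**
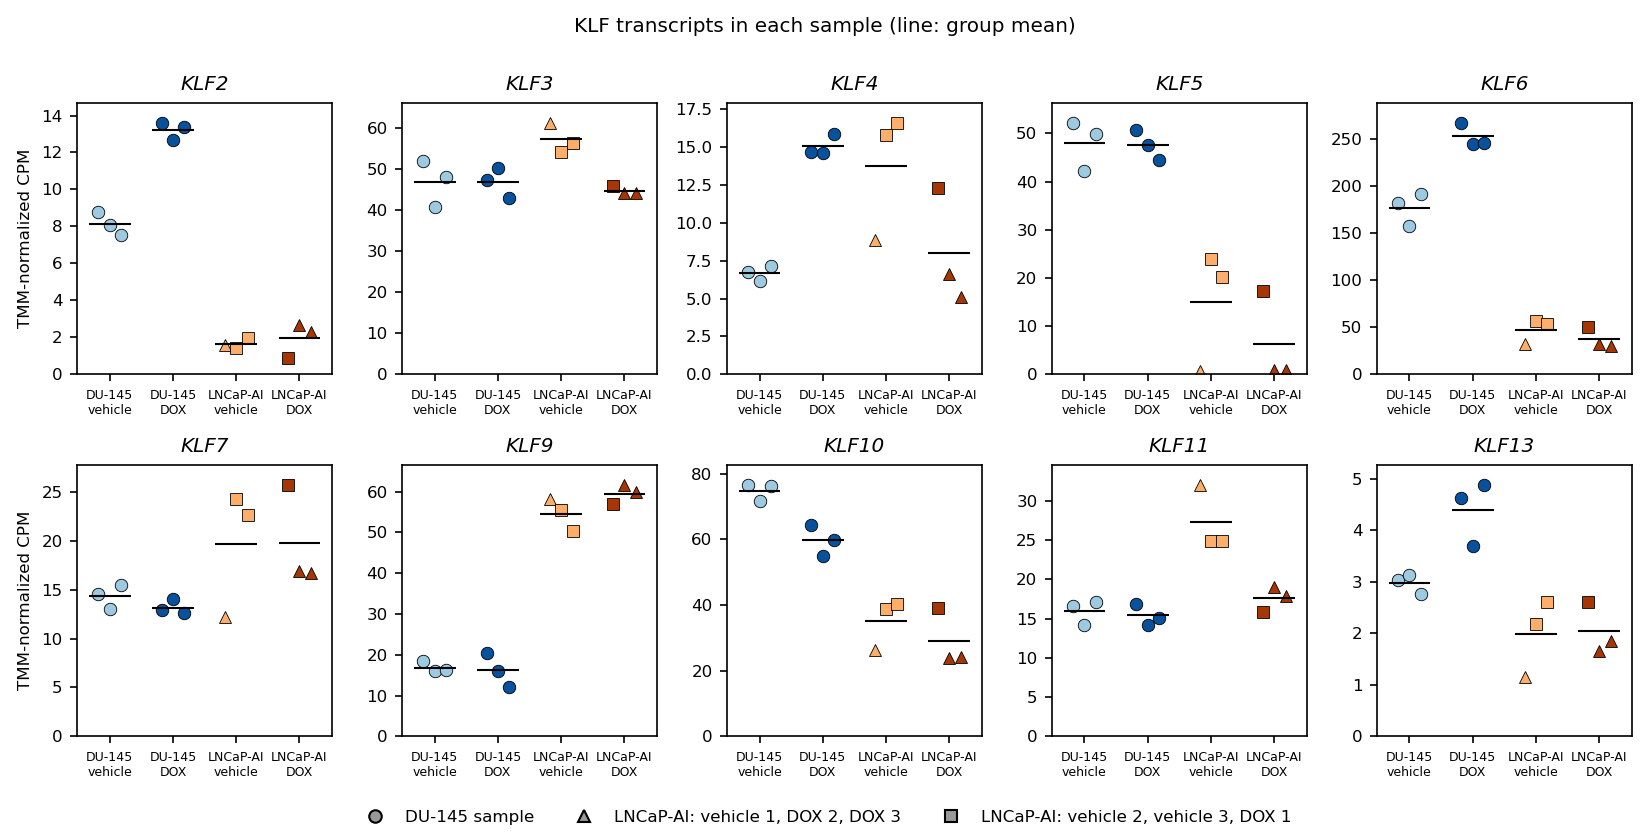
TMM-normalized CPM of the 10 KLF transcripts (1 panel each, vertical axis from 0) in the 12 samples, with horizontal lines at the group means of 3 samples, on a scale common to both lines and so slightly off the CPM normalized within each line that the text gives. Triangles mark side A of the LNCaP-AI samples (vehicle 1, DOX 2, DOX 3) and squares side B. The DOX circles of DU-145 lie above the vehicle circles for KLF2, KLF4, KLF6 and KLF13 and below them for KLF10, and the LNCaP-AI triangles of KLF5 lie near 0.

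In LNCaP-AI cells other members were called. KLF3 and KLF11 were lower with DOX, 8 members did not pass the test, and 0 were called higher by edgeR, with 0 higher at an unadjusted p under 0.05 and 0 by DESeq2. Over 16030 genes 12.7% were called, 7.22% higher and 5.52% lower, and 37.4% had no overlap between the groups, against 2 of the 10 members. The median log2 fold change was -0.33 for the members and -0.05 for all genes.

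KLF11 (ENSG00000172059.10, chromosome 2, 10042849 to 10054836), a TGF-beta-inducible repressor related to KLF10, had 34.8, 26.4 and 26.4 CPM with vehicle and 16.6, 19.9 and 18.7 CPM with DOX. The highest DOX sample was below the lowest vehicle sample. The log2 fold change was -0.66 (SE 0.151, adjusted p = 0.0403, edgeR), and it amounted to -0.84 within side A and -0.67 within side B. KLF3 (ENSG00000109787.12, chromosome 4, 38664197 to 38701517) had 66.6, 57.5 and 59.6 CPM with vehicle and 48.1, 46.3 and 46.4 CPM with DOX. The change on the log2 scale was -0.38 (SE 0.0871, adjusted p = 0.0407, edgeR), and -0.52 and -0.28 within the sides. KLF3 shares 265 exonic bases with KLF3-AS1 and KLF11 416 exonic bases with an antisense gene. How reads were counted with respect to strand is not given in the sources used here, so these reads may not be told apart.

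Both calls are close to the threshold. The KLF11 call was lost without vehicle 1, vehicle 2, vehicle 3, DOX 2 or DOX 3 and the KLF3 call without vehicle 2, vehicle 3, DOX 2 or DOX 3, with adjusted p between 0.0385 and 0.157 for KLF11 and between 0.0409 and 0.174 for KLF3 over the 6 samples left out in turn (edgeR). Without DOX 2 or without DOX 3 only 1 gene of the whole table was called, so these losses are shared with nearly all genes. With the side of the division as a covariate both stayed called, and KLF11 had the lowest adjusted p of the members (1.12e-06, edgeR), in a fit that called 39.1% of all genes. The sides were read from the same counts, so this fit is given only as a comparison.

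KLF4 did not pass the test in LNCaP-AI cells. Its counts were 198, 296 and 479 with vehicle and 301, 116 and 91 with DOX, or 9.61, 16.8 and 17.6 CPM against 12.9, 6.96 and 5.38 CPM. The groups overlapped, since vehicle 1 lay below DOX 1. The log2 fold change was -0.80 (SE 0.394, 95% interval -1.76 to 0.16, adjusted p = 0.226, edgeR). Within the sides it was -0.64 and -0.42, and with the side as a covariate it was -0.52 (adjusted p = 0.00264, edgeR). Without DOX 1 it was -1.23 (adjusted p = 0.0437, edgeR). KLF4 shares 357 exonic bases with an antisense gene.

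KLF5 (ENSG00000102554.13, chromosome 13, 73054976 to 73077541) showed the widest spread among the 10 members. It had 17 counts in vehicle 1, 449 in vehicle 2 and 578 in vehicle 3, and 424 in DOX 1, 14 in DOX 2 and 14 in DOX 3. In CPM these were 0.825, 25.5 and 21.3 with vehicle and 18.1, 0.840 and 0.828 with DOX, so that each treatment held both high and low samples. The log2 fold change of -1.26 had a 95% interval of -5.01 to 2.50 (adjusted p = 0.627, edgeR), whereas within the sides it was 0.02 and -0.37. KLF12, a CtBP-binding relative outside the 10 members, followed the same division, with 1, 237 and 300 counts with vehicle and 242, 3 and 1 with DOX. It was singled out after its counts were seen.

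The division touched other members in the same direction. Across it, 6 of the 10 KLF transcripts, KLF4, KLF5, KLF6, KLF7, KLF10 and KLF13, were lower by at least 0.5 on the log2 scale both in vehicle 1 than in vehicle 2 and 3 and in DOX 2 and 3 than in DOX 1. This held for 12.6% of all genes tested, and none of the members was higher by as much in both, against 3.47% of all genes. For KLF6 the log2 differences were -0.74 within vehicle and -0.70 within DOX, for KLF4 -0.84 and -1.06, for KLF7 -0.91 and -0.61, for KLF10 -0.55 and -0.70, and for KLF13 -0.98 and -0.56. For KLF5 they were -4.74 and -4.36. These are descriptions of samples grouped by the counts themselves and carry no test.

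KLF3, KLF9 and KLF11 differed less across the division, by at most 0.40 on the log2 scale. KLF9 (ENSG00000119138.4, chromosome 9, 70384604 to 70414657) was the steadiest, with 63.2, 58.9 and 53.3 CPM with vehicle and 59.8, 64.7 and 62.7 CPM with DOX. The 95% interval of its DOX effect was -0.13 to 0.32 on the log2 scale. KLF2 differed across the division within DOX and not within vehicle. It had 1.70, 1.53 and 2.06 CPM with vehicle and 0.899, 2.82 and 2.37 CPM with DOX, so that its DOX effect was 0.60 within side A and -0.96 within side B. The KLF2 difference within DOX and the side B value both rest on DOX 1 alone, which had 21 counts. KLF6, KLF7, KLF10 and KLF13 had overlapping groups, with log2 fold changes of -0.36, -0.02, -0.30 and 0.02 and adjusted p from 0.441 to 0.975 (edgeR).

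**Figure D3:**
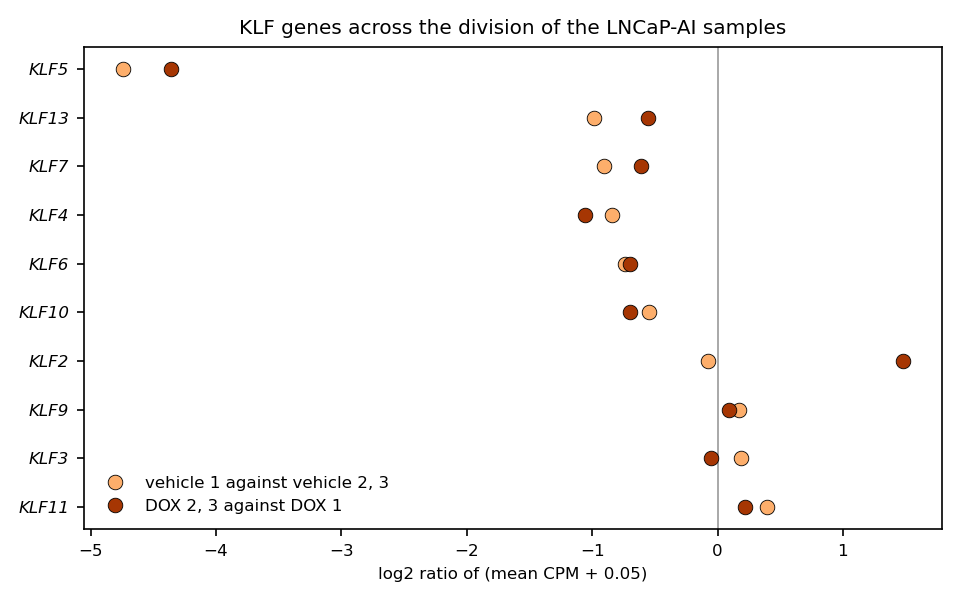
Log2 ratio of mean CPM across the division of the LNCaP-AI samples, for vehicle 1 against vehicle 2 and 3 (light points) and for DOX 2 and 3 against DOX 1 (dark points), with 0.05 CPM added. KLF5 lies at -4.74 and -4.36, 5 further genes lie below -0.5 in both, and KLF2 is near 0 within vehicle and at 1.48 within DOX.

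An interaction term over the 12 samples asked whether the lines differed in their DOX effect, and 9.18% of 16800 genes were called, 5.43% with a higher effect in LNCaP-AI cells and 3.76% with a lower one. KLF4 was the only member called. Its effect in LNCaP-AI cells was lower than in DU-145 cells by a log2 difference of -1.95 (SE 0.438, 95% interval -2.92 to -0.98, adjusted p = 0.0219, edgeR). The KLF4 call was lost without DU-145 vehicle 1, vehicle 2, vehicle 3 or DOX 3 and without LNCaP-AI vehicle 3 or DOX 2, where the adjusted p from edgeR was 0.0503 to 0.0612. With the side of the division as a covariate, added after seeing the data, the difference was -1.65 (adjusted p = 6.31e-08, edgeR).

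For KLF6, KLF11 and KLF3 the log2 differences of the effects were -0.85, -0.58 and -0.35 (adjusted p = 0.122, 0.0789 and 0.138, edgeR). With the side as a covariate the same genes had -0.61, -0.66 and -0.37 (adjusted p = 0.000251, 0.00149 and 0.0341, edgeR), in a fit that called 24.5% of all genes. KLF6 was also called by DESeq2 (-0.83, adjusted p = 0.0393), without LNCaP-AI vehicle 1 (-1.07, adjusted p = 0.0201, edgeR) and without LNCaP-AI DOX 1 (-1.13, adjusted p = 0.0153, edgeR). KLF5 passed the test only without LNCaP-AI DOX 1 (-4.21, adjusted p = 0.0411, edgeR), which leaves the low KLF5 samples alone in the DOX group. For KLF2, KLF7, KLF9, KLF10 and KLF13 the differences were -0.49, 0.13, 0.18, 0.05 and -0.52, with adjusted p of 0.473 or more (edgeR).

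**Figure D4:**
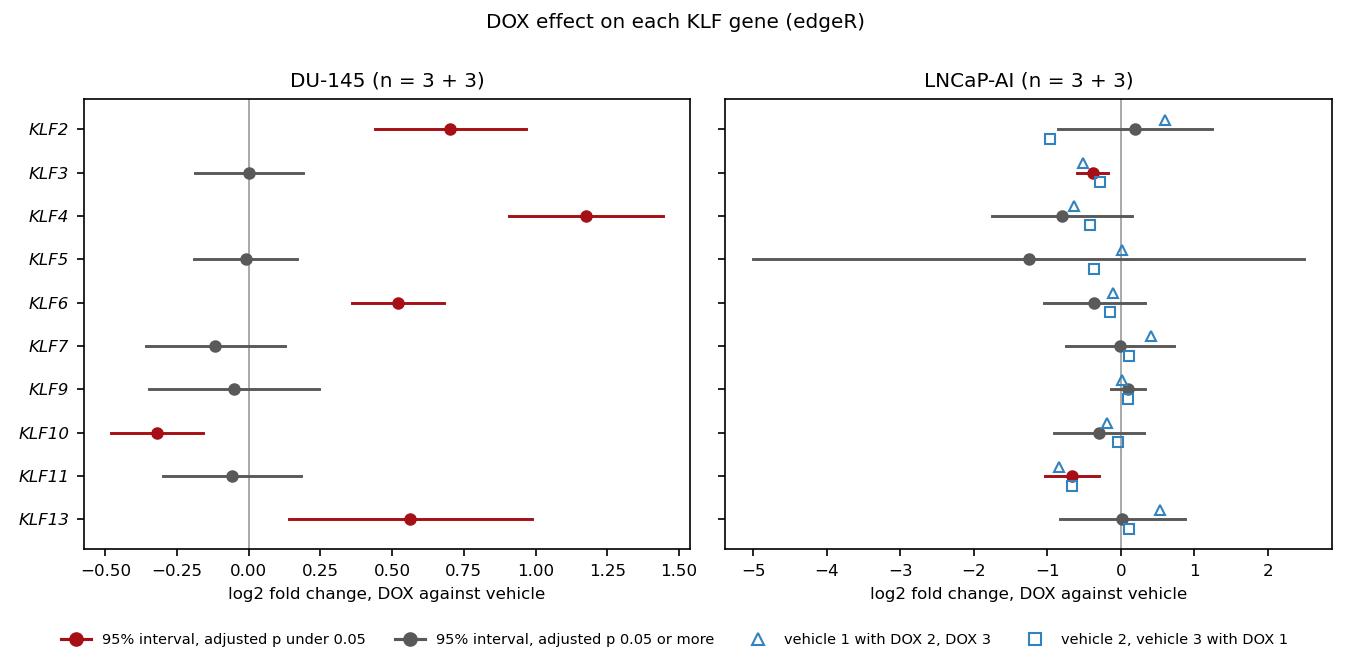
Log2 fold change of DOX against vehicle for each KLF gene in DU-145 (left) and LNCaP-AI (right), with 95% intervals from edgeR (red, adjusted p under 0.05) and, in LNCaP-AI, the values within the sides of the division (open triangles and squares). The horizontal scales of the panels differ. KLF4 lies at 1.18 in DU-145 and at -0.80 in LNCaP-AI, and the LNCaP-AI interval of KLF5 runs from -5.01 to 2.50.

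Of 8 other genes of the KLF family 3 were tested in each line. KLF16, a SIN3A-recruiting member, was higher with DOX in DU-145 cells (log2 fold change 0.34, adjusted p = 0.00287, edgeR), and 0 were called in LNCaP-AI cells by edgeR, with 0 at an unadjusted p under 0.05 and 0 by DESeq2. KLF15 had 169 to 276 counts per sample in LNCaP-AI cells and 0 to 7 in DU-145 cells. The SP proteins bind the same GC boxes. Counts of called genes in this and the following lists are to be read against all genes tested, of which 26.3% were called higher with DOX and 25.3% lower in DU-145 cells, and 7.22% and 5.52% in LNCaP-AI cells. In DU-145 cells 2 of 5 tested SP genes were lower with DOX, SP4 (-0.99, adjusted p = 1.17e-06) and SP3 (-0.31, adjusted p = 0.00251), and in LNCaP-AI cells 2 of 7 were lower, SP2 (-0.43, adjusted p = 0.0383) and SP4 (-0.99, adjusted p = 0.0488), all by edgeR. DESeq2 called 4 SP genes lower in LNCaP-AI cells, SP1 and SP3 beside SP2 and SP4. The median log2 fold change of the tested SP genes was -0.13 in DU-145 cells and -0.33 in LNCaP-AI cells, against 0.00 and -0.05 over all genes.

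Among 13 partner proteins of the family, 5 were higher and 2 lower with DOX in DU-145 cells, and 2 were lower in LNCaP-AI cells. These shares, by edgeR, are close to the 51.5% and 12.7% called over all genes, and the medians were 0.04 and -0.10. DESeq2 called 2 higher and 2 lower in DU-145 cells, where it called 44.6% of all genes, and 2 lower in LNCaP-AI cells, where it called 22.2%. CTBP1, the corepressor that KLF3 recruits, had 1388 to 1859 counts with vehicle and 608 to 738 with DOX in DU-145 cells (log2 fold change -1.34, adjusted p = 2.64e-11, edgeR). In LNCaP-AI cells it had 1884 to 3349 counts with vehicle and 1291 to 1865 with DOX (-0.69, adjusted p = 0.0262, edgeR). SAP30, a subunit of the SIN3 complex, was lower (-0.51, adjusted p = 0.00199, edgeR) and HDAC3 higher (0.24, adjusted p = 0.00725, edgeR) in DU-145 cells, and SIN3A was lower in LNCaP-AI cells (-0.37, adjusted p = 0.0427, edgeR).

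The kinase ERK5 and the MEF2 factors are known to drive KLF2 and KLF4 transcription in endothelial cells. Of 6 tested genes of this route 2 were higher with DOX in DU-145 cells and 0 in LNCaP-AI cells by edgeR, against 26.3% and 7.22% of all genes, with medians of 0.09 and -0.06. At an unadjusted p under 0.05, 1 was higher (MEF2D, log2 fold change 0.29) and 1 lower (MEF2A, -0.35) in LNCaP-AI cells, and DESeq2 called the same 2 genes. MEF2D rose by 0.79 (adjusted p = 2.92e-08, edgeR) and MAP3K3, the kinase at the top of the route, by 0.61 (adjusted p = 2.01e-06, edgeR) on the log2 scale in DU-145 cells. Their effects were lower in LNCaP-AI cells than in DU-145 cells by -0.46 and -0.51 (adjusted p = 0.0322 and 0.0238, edgeR). MAPK7, the gene of ERK5 itself, did not pass the test in DU-145 cells (-0.09, adjusted p = 0.499, edgeR). Nor did MAP2K5 (-0.105, adjusted p = 0.4), MEF2A (-0.10, adjusted p = 0.372) and MEF2C (0.27, adjusted p = 0.628), all by edgeR.

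Genes widely described as KLF targets moved in both directions. In DU-145 cells 5 of 12 tested were higher and 3 lower with DOX, and in LNCaP-AI cells 2 of 15 were higher and 2 lower. Among all genes tested 51.5% and 12.7% were called, and the medians of the list were 0.04 and -0.28. CDKN1A, the cell cycle inhibitor p21 and a described target of KLF4 and KLF6, had 400 to 576 counts with vehicle and 1952 to 2319 with DOX in DU-145 cells (log2 fold change 2.07, adjusted p = 1.44e-13, edgeR). In LNCaP-AI cells CDKN1A had 1169 to 2134 counts with vehicle and 15074 to 17140 with DOX (11.4-fold, adjusted p = 0.00233, edgeR). Whether KLF4 or KLF6 acts on CDKN1A in these cells was not tested. The next called were MMP14 (1.32, adjusted p = 1.01e-10) and the keratin KRT19 (1.02, adjusted p = 5.97e-10) in DU-145 cells and CCND1, cyclin D1 (1.63-fold, adjusted p = 0.0123), and the apoptosis inhibitor BIRC5 (log2 fold change -1.04, adjusted p = 0.0148) in LNCaP-AI cells, all by edgeR.

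KLF4 belongs with MYC, SOX2 and POU5F1 to the reprogramming factors that the study examined. By immunoblot, the paper reported decreases of these factors after MUC1 silencing in both lines. For SOX2 in LNCaP-AI cells it also reported lower mRNA by qRT-PCR, against DOX-treated cells with a control shRNA. The values here are RNA, a measure unlike the immunoblots, and in DU-145 cells KLF4 and MYC RNA went the other way. MYC was higher with DOX in DU-145 cells (log2 fold change 0.60, adjusted p = 4.54e-07, edgeR), where KLF4 also rose. In LNCaP-AI cells MYC did not pass the test (-0.07, adjusted p = 0.612, edgeR). SOX2 had 0 counts in every LNCaP-AI sample, with vehicle and with DOX, and 0 to 2 counts in the DU-145 samples. POU5F1 had 0 to 15 counts per sample over both lines. Both had too few counts to be tested, so the reported decrease of SOX2 mRNA could not be examined here.

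The genes whose log2 CPM over the 12 samples was most like that of a member were listed for the 2 members with the largest absolute fitted log2 fold change in each line, KLF4 and KLF2 in DU-145 cells and KLF5 and KLF4 in LNCaP-AI cells, whether or not it passed the test. In LNCaP-AI cells neither passed it, and the KLF5 value follows the division of the samples. For KLF4 these were PRMT5, OXNAD1 and SOX9, with Pearson correlations of 0.93, 0.923 and 0.918 over 12 samples and among 13626 protein-coding genes. For KLF2 they were ADAMTS12 (0.979), GPX3 (0.977) and SNTB1 (0.976), and for KLF5 they were ZNF655, PRXL2A and TGFBI, with 0.998 each. The 12 points share 2 cell lines, and for KLF5 also the division of the LNCaP-AI samples, so these values are a description only.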

How the data were processed

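Both tet-MUC1shRNA lines, LNCaP-AI and DU-145, were profiled by RNA-seq with vehicle or DOX, giving 12 samples in 4 groups of 3 taken from the labels. Per the submitters' processing notes, the authors used CASAVA 1.8.2, STAR 2.7.0, DESeq2 1.24.0 and GRCh38.p7. The libraries were TruSeq stranded mRNA. The counting tool and its strand setting are not given in the sources used here. The authors deposited raw counts per gene, without normalization, and 56993 of 58037 identifiers matched a symbol. GENCODE release 44 (GRCh38) supplied gene positions and lengths, and the authors may have counted on another release.

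The KLF members and all gene lists were chosen with earlier results of these data known. Genes reaching 10 counts in 3 or more samples of a fit were tested over the whole table with edgeR 4.0.16 (TMM, quasi-likelihood test, R 4.3.3), with calls made where the Benjamini-Hochberg adjusted p was under 0.05. Standard errors were derived from the log2 fold change and F. CPM values were TMM-normalized within a line, and RPKM over 12 samples used the length of all exons. Values within the LNCaP-AI division are log2 ratios of mean CPM with 0.05 added and have no test. Every replicate pair differed by more than sampling noise (lowest chi-square per degree of freedom 2.38). The steps were tested on simulated data.

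The genes named are the members, MUC1, KLK2 and KLK3 as line markers (another marker is not reported here), from each list up to 3 called genes per line with the lowest adjusted p, and the 3 genes most correlated with the 2 members of largest absolute fitted log2 fold change per line. KLF12, KLF15, MEF2A, SP1 and SP3 in LNCaP-AI cells and MAPK7, MAP2K5, MEF2A and MEF2C in DU-145 cells are named after their values were seen. Alternatives were DESeq2 1.42.0, its size factors, upper-quartile normalization, other filters, a fit of all 12 samples, the replicate block, the LNCaP-AI division as a covariate and leaving out each sample. Promoter windows are from RefSeq on GRCh38.p14, for 8 of 10 members.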

Additional observations from a re-analysis of the deposited data

Results flagged for a closer look

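The DOX effect on KLF4 differed between the cell lines by a test of the difference itself, with a log2 difference of -1.95 (LNCaP-AI minus DU-145, SE 0.438, adjusted p = 0.0219, edgeR, interaction over 12 samples). KLF4 was higher with DOX in 3 of 3 DU-145 samples than in any vehicle sample, whereas in LNCaP-AI cells the groups overlapped. Reads of the antisense gene that shares 357 exonic bases with KLF4 may not be told apart in either line. Within the sides of the LNCaP-AI division the KLF4 effect was -0.64 and -0.42. The call was lost without DU-145 vehicle 1, vehicle 2, vehicle 3 or DOX 3 and without LNCaP-AI vehicle 3 or DOX 2 (adjusted p = 0.0503 to 0.0612, edgeR), and under the replicate block (adjusted p = 0.165, edgeR). With the side of the division as a covariate, added after seeing the data, the difference was -1.65 (adjusted p = 6.31e-08, edgeR).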

How the results depend on the processing

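With another setting, the number of KLF genes called in DU-145 cells stayed at 4 or 5 of 10, except in the fit of all 12 samples, which called 1, and leaving out each sample gave 4 to 5. Of all genes, the main fit called 51.5%, the fit of all 12 samples 24.3% and the fit without a filter 24.9%. With each sample left out, 44.2% to 52.8% were called. In LNCaP-AI cells, where 2 were called, upper-quartile normalization gave 1, the replicate block 0, and leaving out each sample 0 to 3. The shares of all genes called were 14.1%, 0% and 0.00632% to 23.6% in these fits, against 12.7% in the main fit. For the difference between the lines, where 1 was called, DESeq2 gave 2, the replicate block 0, the side of the division as a covariate 4 (added after seeing the data) and leaving out each sample 0 to 3. Here the shares of all genes were 14.6%, 0.31%, 24.5% and 4.43% to 21.3%, against 9.18% in the main fit. For the vehicle samples, where 6 were called, all settings gave 5 to 9, and KLF3 was called with upper-quartile normalization (-0.35, adjusted p = 0.0286, edgeR), without a filter (-0.39, adjusted p = 0.0283, edgeR) and in the fit of all 12 samples (-0.29, adjusted p = 0.0237, edgeR). The 9 were called without LNCaP-AI vehicle 1, where 71.5% of all genes were called. The 5 were called without DU-145 vehicle 2, with 57.2% of all genes, against 65.1% in the main fit. The cause of these changes was not tested.

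Signs changed only for genes that were not called. KLF3 in DU-145 cells had -0.003 with DESeq2, -0.004 with its size factors, -0.024 with upper-quartile normalization and -0.002 in the fit of all 12 samples. In LNCaP-AI cells KLF7 had 0.025 with upper-quartile normalization, 0.002 with the replicate block, 0.007 in the fit of all 12 samples and 0.250 with the side as a covariate, KLF13 had -0.043 without a filter and KLF2 -0.112 with the side as a covariate. Leaving out each sample gave -0.090 to 0.061 for KLF3, -0.098 to 0.034 for KLF5, -0.240 to 0.116 for KLF9 and -0.136 to 0.008 for KLF11 in DU-145 cells. It gave -0.12 to 0.58 for KLF2, -0.26 to 0.15 for KLF7 and -0.25 to 0.26 for KLF13 in LNCaP-AI cells, and -0.13 to 0.30 for KLF7 and -0.23 to 0.17 for KLF10 in the line difference.

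Deviations of same-numbered samples correlated by 0.139, -0.0999 and 0.0833 in DU-145 cells, which gave no sign of pairing by replicate number. In LNCaP-AI cells the correlations were -0.943, -0.823 and -0.851. There the same-numbered samples lie on opposite sides of the division, so these values cannot show whether the numbers pair cultures. With the replicate block, KLF3 and KLF11 had log2 fold changes of -0.38 and -0.66 in LNCaP-AI cells (adjusted p = 0.227 and 0.232, edgeR), where 0 genes of the whole table were called, and KLF4 had a line difference of -2.02 (adjusted p = 0.165, edgeR). By the highest count in any sample, the depth limits KLF13 and KLF2 most, with at most 75 and 161 counts per sample. Within single groups other members were as low or lower. With vehicle in DU-145 cells KLF4 had 61 to 85 counts and KLF2 80 to 107. KLF5 had 17, 14 and 14 counts in vehicle 1, DOX 2 and DOX 3 of LNCaP-AI cells.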
